A study of Mus musculus with 9 samples.

Results

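The glycolysis enzymes described here are the products of 10 mouse genes that act at 5 steps of the pathway: the hexokinases Hk1 and Hk2, the phosphofructokinases Pfkl, Pfkm and Pfkp, the aldolases Aldoa and Aldoc, the pyruvate kinase Pkm, and the lactate dehydrogenases Ldha and Ldhb. They were found by gene symbol in a table of 35397 genes and occupied 11 rows, because Aldoa stood under 2 Ensembl identifiers. RNA was sequenced from whole retina of db/db mice (4 libraries, numbered 1, 3, 4 and 5) and of wild-type mice (5 libraries, numbered 1 to 5). db/db mice are homozygous for a loss-of-function mutation of the leptin receptor and are a common model of obesity and type 2 diabetes. Age, sex, strain background and treatment were not given for either group. Whether the libraries came from separate mice was not stated either, so the p-values below measure the spread between these libraries, which may be partly technical. Expression was given as FPKM, a fragment count scaled to exon length and sequencing depth.

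Glycolysis splits glucose into pyruvate, and lactate dehydrogenase can turn that pyruvate into lactate. The retina is known for making much lactate even when oxygen is present, and its photoreceptors are the main site of this aerobic glycolysis. Several steps are served by isoenzymes, different genes for the same reaction, which differ in their affinity, their regulation and the tissues that use them.

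None of the 10 enzymes changed past an adjusted p of 0.05 between db/db and wild-type retina. Aldoc, Pkm and Ldhb had higher deposited FPKM in every db/db library than in any wild-type library, with ratios of the means from 1.15 to 1.25 (1.12 to 1.14 without db/db 1). Such a separation with db/db above held for 5.20% of all tested genes, and that of Pkm was lost under other scalings and after a correction for GC content. Pfkp had lower FPKM in 3 of 4 db/db libraries than in any wild-type library. Hk2 ranged more widely among the wild-type retinas than the means of the groups differed. Changes were tested with limma on log2(FPKM + 1), over the 14588 genes that averaged 1 FPKM or more in the 9 libraries, with Benjamini-Hochberg adjustment over all of them. All 11 rows of the enzymes passed that filter, and 0 of the 11 were called higher or lower, while 0.500% of all tested genes were called. At an unadjusted p under 0.05 limma gave 4 of the 11 rows, while it gave 19.3% of all tested genes. limma with its robust option also called 0 of the 11.

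In every library, going by read numbers recovered from the spacing of the low FPKM values, each of the 10 main rows rested on at least 7087 reads. Rod genes (8 markers) summed to 11295 to 12971 FPKM in db/db and to 11026 to 11848 FPKM in wild-type libraries, so the label retina held. The library db/db 1 stood apart. Its 8 skeletal muscle markers, each highest there, summed to 224 FPKM, against 12.5 to 29.7 FPKM in the other db/db libraries and 12.5 to 14.2 FPKM in wild type. Its 6 pigment epithelium markers summed to 338 FPKM, against 61.9 to 159.5 FPKM in the other db/db libraries and 97.1 to 154 FPKM in wild type. Ttr alone gave 275 FPKM of that sum, and 5 of the 6 were highest in db/db 1, Lrat being the exception. Its 5 red blood cell markers summed to 72.6 FPKM, against 21.7 to 23.8 FPKM and 14.6 to 26.1 FPKM, and 4 of the 5, all but Alas2, were highest there. Lists of retinal cells differed there too. The amacrine and ganglion markers of db/db 1 summed to 468 FPKM, against 347 to 402 FPKM in the other libraries, with 4 of 8 highest there. Its Muller glia markers summed to 1581 FPKM, against 1288 to 1462 FPKM, with 2 of 7 highest there. Its bipolar markers summed to 175 FPKM, against 198 to 216 FPKM. Among rod markers, Nrl had 462 FPKM, against 271 to 326 FPKM, and Pde6a 384 FPKM, against 534 to 636 FPKM. No marker list was at 0 in any library. The FPKM values of db/db 1 summed to 311179, against 252832 to 264388 in the other db/db libraries and 263052 to 268139 in wild type. The enzymes' log2 changes and shares below are therefore given with and without db/db 1. The 5 lens markers, a list on which db/db 5 was highest, summed to 179 FPKM in db/db 5, against 1.31 to 78.9 FPKM in the other db/db libraries and 1.07 to 86.2 FPKM in wild type, and their part in the results was not tested. In whole tissue, fewer cells of a type and less RNA per cell cannot be told apart.

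Ranked by mean FPKM over the 9 libraries, Pkm was the highest of the enzymes (688 FPKM, rank 24 of the 14588 tested genes), followed by Aldoa (589.7, rank 28), Ldha (363, rank 53), Aldoc (183), Hk1 (147), Ldhb (139), Hk2 (93.7), Pfkl (75.3), Pfkp (73.3) and Pfkm (55.5, rank 599). The first 4 kept their order over the next gene in 9 of 9 libraries. Hk1 exceeded Ldhb in 7 of 9 libraries, Ldhb exceeded Hk2 in 8 of 9, Hk2 exceeded Pfkl in 7 of 9 and Pfkp exceeded Pfkm in 8 of 9. Pfkl and Pfkp could not be ordered, since Pfkl was the higher in 4 of 9 libraries. FPKM divides by a gene length, and with the longest transcript as that length Hk1 (294) stood above Aldoc (214) and Hk2 (101) stood below Pfkl (135) and Pfkp (113). Together the 10 symbols carried 0.819 to 1.01% of the summed FPKM of a library.

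**Figure D1:**
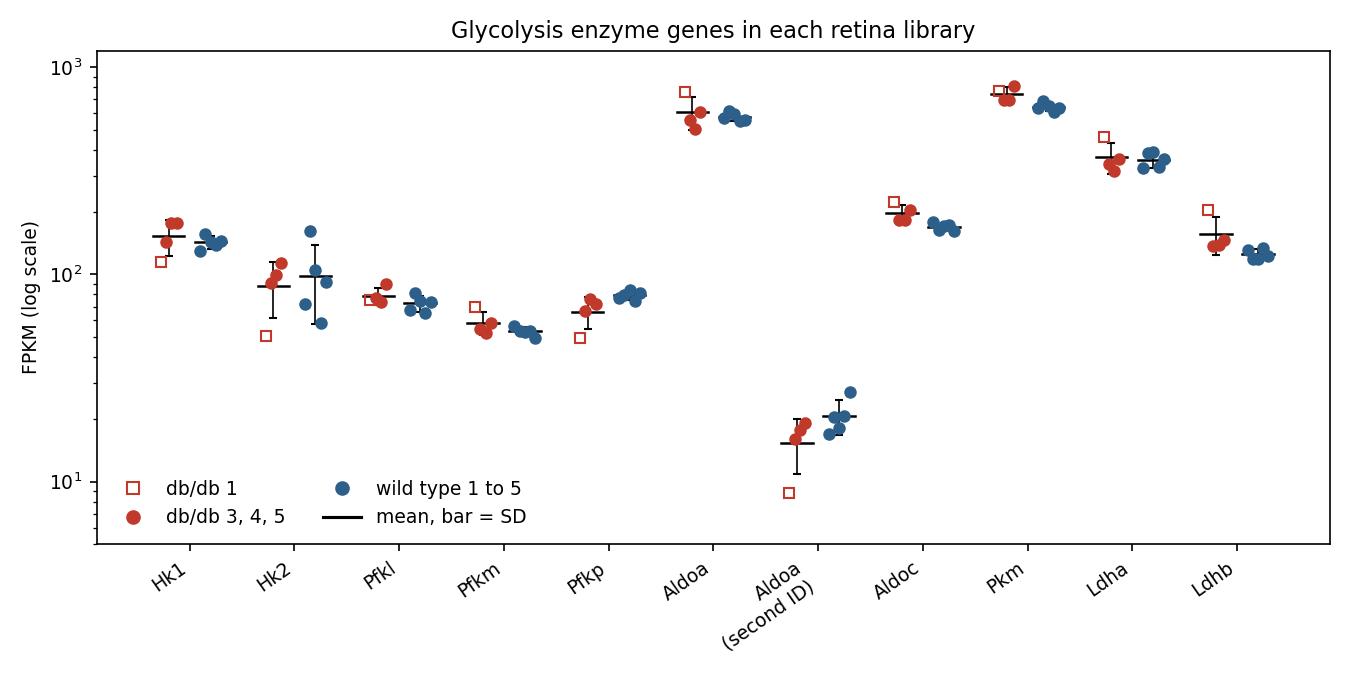
FPKM (log scale) of each of the 11 rows in each library, with db/db libraries (red, db/db 1 as an open square) left of wild-type libraries (blue), and the mean with its SD in black. The db/db points of Aldoc, Pkm and Ldhb lie above all wild-type points, while Hk2 spreads from 58.4 to 162 FPKM among the wild-type libraries.

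Hexokinase traps glucose in the cell by phosphorylating it. Hk1 (ENSMUSG00000037012, chr10:62268855-62379908, minus strand, GRCm38) is the form found in most tissues, brain included. It had 115, 143, 177 and 178 FPKM in db/db 1, 3, 4 and 5, against 129, 157, 143, 138 and 145 FPKM in wild type 1 to 5. db/db 1 was the lowest and db/db 4 and 5 the highest of the 9, so the groups overlapped. The means were 153 ± 30.0 FPKM in db/db (SD, n = 4) and 143 ± 10.2 FPKM in wild type (SD, n = 5), and the 95% interval of the log2 change of 0.09 ran from -0.20 to 0.38 (adjusted p = 0.735 by limma). Without db/db 1 the log2 change was 0.21 (adjusted p = 0.126).

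Hk2 (ENSMUSG00000000628, chr6:82725025-82774454, minus strand) encodes an inducible hexokinase that binds mitochondria and that photoreceptors use. It had 50.6, 90.7, 98.9 and 113 FPKM in the db/db libraries, against 72.1, 162, 105, 58.4 and 91.9 FPKM in the wild-type libraries. The highest value of all was wild type 2 and the lowest db/db 1, and the db/db values apart from db/db 1 lay inside the wild-type range. The log2 change was -0.12 with a 95% interval of -0.81 to 0.57 (limma, adjusted p = 0.848), and it was 0.12 without db/db 1 (adjusted p = 0.796) and 0.08 without wild type 2, so its direction rested on single libraries.

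Hk2 varied widely among the wild-type retinas. The highest wild-type library had 2.78 times the FPKM of the lowest. The SD of its log2(FPKM + 1) over the 5 wild-type libraries was 0.556, while the median over all tested genes was 0.0797. That SD was above 99.2% of the tested genes, and it ranked 6 among the 675 genes that averaged 50 FPKM or more. Hk1 had a wild-type SD of 0.103 on the same scale. Over the 4 db/db libraries the SD of Hk2 was 0.504, above 91.0% of the tested genes, and over db/db 3, 4 and 5 it was 0.158. Counting error was small beside this, at 0.847% for the library with the fewest Hk2 reads. Hk2 made up 30.5, 38.7, 35.9 and 38.8% of the summed hexokinase FPKM (Hk1 plus Hk2) in the db/db libraries, against 35.9, 50.8, 42.4, 29.7 and 38.8% in wild type. The means of the share were 36.0 ± 3.89% in db/db and 39.5 ± 7.85% in wild type (SD, n = 4 and 5), and in a two-sided exact permutation test the difference had p = 0.468. Without db/db 1 the difference was -1.70 percentage points (exact permutation p = 0.732 adjusted over the 6 shares).

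**Figure D2:**
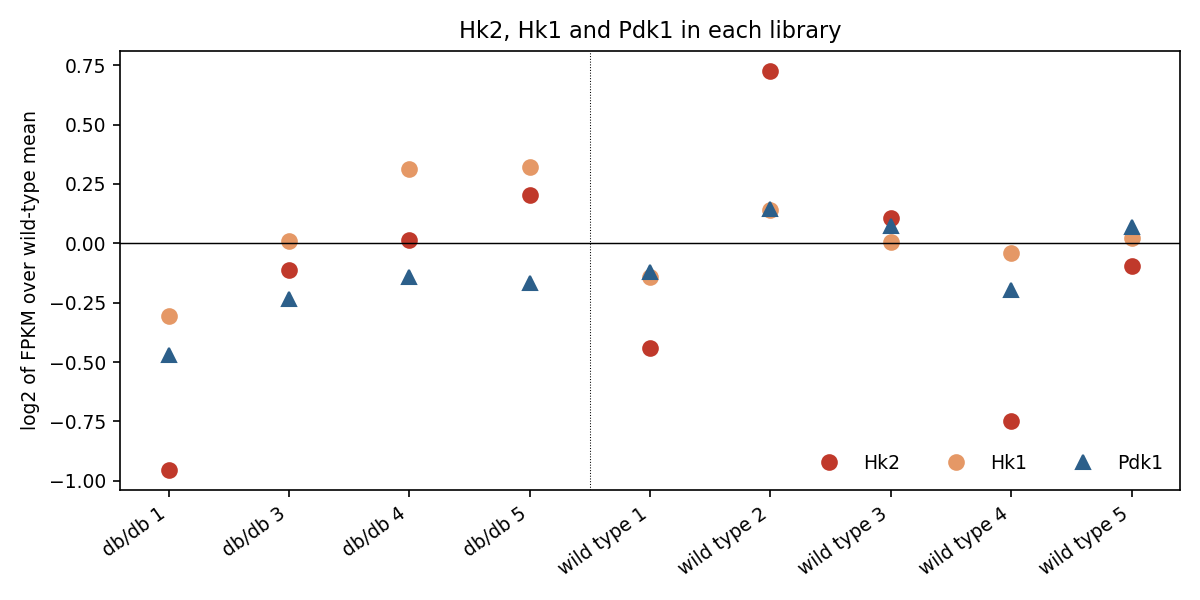
log2 of FPKM over the wild-type mean for Hk2, Hk1 and Pdk1 in each of the 9 libraries, db/db at the left and wild type at the right of the dotted line. Hk2 is highest in wild type 2 and lowest in db/db 1, and Hk2 and Pdk1 put the 5 wild-type libraries in the same order.

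The promoters are shown for the hexokinase with the widest spread and, for contrast, for the lactate dehydrogenase pair, in which Ldhb and not Ldha separated the groups. Each window runs from 250 bases before to 50 bases after a RefSeq transcription start on GRCm38.p6, written 5′ to 3′ on the gene's strand. Capitals mark ACGTG or its reverse complement CACGT, the core letters that HIF1 (the hypoxia-inducible factor, a known activator of glycolysis genes) and E-box factors bind. The Hk2 window is chr6:82774405-82774704 (minus strand), the Ldha window is chr7:46845554-46845853 (plus strand, 1 of 2 listed starts) and the Ldhb window is chr6:142507908-142508207 (minus strand).
Hk2: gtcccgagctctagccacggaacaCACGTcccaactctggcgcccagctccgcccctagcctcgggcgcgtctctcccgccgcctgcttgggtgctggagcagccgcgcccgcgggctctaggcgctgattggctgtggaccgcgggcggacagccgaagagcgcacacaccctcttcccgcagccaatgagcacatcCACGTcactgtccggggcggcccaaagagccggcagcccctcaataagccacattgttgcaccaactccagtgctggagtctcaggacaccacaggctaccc
Ldha: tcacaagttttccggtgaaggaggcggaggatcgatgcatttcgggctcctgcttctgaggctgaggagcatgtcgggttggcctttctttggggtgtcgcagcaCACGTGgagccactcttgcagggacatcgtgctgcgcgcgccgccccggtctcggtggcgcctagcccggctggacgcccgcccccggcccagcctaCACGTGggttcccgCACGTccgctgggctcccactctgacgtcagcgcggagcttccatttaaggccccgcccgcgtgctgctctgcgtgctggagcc
Ldhb: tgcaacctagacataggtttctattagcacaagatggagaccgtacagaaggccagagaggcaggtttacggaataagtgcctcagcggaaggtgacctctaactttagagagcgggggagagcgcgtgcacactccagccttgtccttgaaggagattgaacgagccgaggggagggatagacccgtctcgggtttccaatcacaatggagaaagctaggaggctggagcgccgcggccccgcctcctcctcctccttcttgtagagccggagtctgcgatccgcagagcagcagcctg
ACGTG, read on both strands, occurred 2 times in the Hk2 window, 5 times in the Ldha window and 0 times in the Ldhb window. The other listed Ldha window (chr7:46846832-46847131), not shown, also held 0, so the contrast with Ldhb depends on the start shown. The 5 matches of Ldha include 2 palindromic CACGTG sites, each counted once on either strand. Over all 32851 RefSeq promoter windows of this length, 19.6% held at least 1 ACGTG and 1.73% held at least 3. Of the 19 windows listed for the 10 enzymes, 9 held ACGTG; 2 of these 9 are Aldoa windows that overlap and share 1 site. The full CACGTG, which contains ACGTG, stood in 2 of 19 windows and in 7.15% of all windows. GCGTG, the other common HIF1 core, stood in 10 of 19 windows and in 32.4% of all windows, once in that of Ldhb. These matches describe letters and not binding.

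Phosphofructokinase commits sugar to glycolysis and is the step most tightly held by ATP and citrate. Its 3 genes encode the liver (Pfkl), muscle (Pfkm) and platelet (Pfkp) forms, which assemble into tetramers. Their summed FPKM was 203 ± 11.2 in db/db and 205 ± 8.49 in wild type (SD, n = 4 and 5). Within that sum, Pfkl and Pfkm averaged higher and Pfkp lower in db/db retina.

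Pfkp (ENSMUSG00000021196, chr13:6579768-6648777, minus strand) had 49.3, 66.9, 75.7 and 71.8 FPKM in the db/db libraries, against 77.1, 79.1, 84.2, 74.3 and 81.6 FPKM in wild type. db/db 1, 3 and 5 lay below all wild-type libraries, while db/db 4 lay above wild type 4. The means were 65.9 ± 11.6 FPKM in db/db and 79.3 ± 3.87 FPKM in wild type (SD, n = 4 and 5). The log2 change of -0.28 (SE 0.12) did not pass the test (limma, adjusted p = 0.234), and without db/db 1 it was -0.15 (adjusted p = 0.114).

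Pfkl (ENSMUSG00000020277, chr10:77986947-78010083, minus strand) had 75.5, 76.9, 73.5 and 89.9 FPKM in the db/db libraries, against 67.5, 81.4, 74.7, 65.0 and 73.7 FPKM in wild type. The groups overlapped, with db/db 5 the highest, and the log2 change was 0.12 (limma, adjusted p = 0.460), or 0.14 without db/db 1 (adjusted p = 0.299). Pfkm (ENSMUSG00000033065, chr15:98092589-98132451, plus strand) had 69.3, 54.6, 52.2 and 58.0 FPKM in the db/db libraries, against 56.6, 53.4, 52.8, 53.6 and 49.2 FPKM in wild type. Its highest value was db/db 1, the library whose muscle markers were highest, and the log2 change was 0.13 with that library and 0.05 without it (limma, adjusted p = 0.428 and 0.588).

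As shares of the 3 genes, Pfkp took 25.4, 33.7, 37.6 and 32.7% in the db/db libraries, against 38.3, 37.0, 39.8, 38.5 and 39.9% in wild type. Only db/db 4 reached into the wild-type range, just above wild type 2. The share of Pfkp was 6.34 percentage points lower in db/db, at 32.4 ± 5.09% in db/db against 38.7 ± 1.19% in wild type (SD, n = 4 and 5; exact two-sided permutation p = 0.0159, adjusted over 6 shares 0.0952). Without db/db 1 the difference was -4.03 points (exact p = 0.107 adjusted over the 6). Pfkl took 38.8 ± 1.82% in db/db against 35.3 ± 1.84% in wild type (exact permutation p = 0.0397, adjusted 0.0952), and the difference was 3.43 points with db/db 1 and 3.40 points without it. Pfkm took 28.9 ± 4.60% in db/db against 26.0 ± 1.84% in wild type (exact permutation p = 0.214, adjusted 0.257), and the difference of 2.91 points came down to 0.632 points without db/db 1.

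Aldolase splits fructose bisphosphate into trioses. Aldoa is the muscle and housekeeping form and Aldoc the form of brain, where astrocytes hold much of it. Aldoc (ENSMUSG00000017390, chr11:78322968-78327781, plus strand) had 222, 182, 184 and 204 FPKM in the db/db libraries, against 179, 164, 171, 174 and 162 FPKM in wild type. Every db/db library was above every wild-type library, the closest pair being db/db 3 and wild type 1. The means were 198 ± 18.9 FPKM in db/db and 170.0 ± 7.10 FPKM in wild type (SD, n = 4 and 5), a ratio of 1.17. The log2 change of 0.22 (SE 0.08) did not pass the test (limma, adjusted p = 0.174), nor did that of 0.16 without db/db 1 (adjusted p = 0.0923). Groups separated in this way, with db/db above, for 3 of the 11 rows and for 5.20% of all tested genes. No row separated with db/db below, while 6.38% of all genes did, and 11.6% did in either direction.

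Aldoa (ENSMUSG00000030695, chr7:126795234-126800751, minus strand) had 760.3, 555, 504 and 609 FPKM in the db/db libraries, against 570.2, 614, 593, 547 and 555 FPKM in wild type. db/db 1 was the highest and db/db 4 the lowest of the 9. The log2 change was 0.06 with a 95% interval of -0.20 to 0.32 (limma, adjusted p = 0.792), and -0.05 without db/db 1. Its second identifier (ENSMUSG00000114515, chr7:126800790-126809108, minus strand) lies next to it, just upstream, and had 8.82, 16.1, 17.7 and 19.1 FPKM in the db/db libraries, against 17.0, 20.4, 18.2, 20.8 and 27.2 FPKM in wild type. db/db 1 was the lowest there, and the log2 change was -0.44 (limma, adjusted p = 0.290) or -0.21 without db/db 1. The gene Fam57b overlaps Aldoa on the opposite strand at a mean of 219 FPKM. Whether reads were counted by strand was not given, so reads of that pair cannot be told apart here. Aldoc made up 24.8 ± 1.68% of the 2 aldolases in db/db and 22.8 ± 1.24% in wild type (SD, n = 4 and 5; exact permutation p = 0.0873, adjusted 0.131), without the second Aldoa row. The difference was 1.98 percentage points, or 2.70 points without db/db 1 (exact permutation p = 0.107 adjusted over the 6).

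Pyruvate kinase makes ATP and pyruvate at the last step of glycolysis. Pkm (ENSMUSG00000032294, chr9:59656368-59679375, plus strand) encodes both the M1 and the M2 form by alternative splicing, which totals per gene do not separate. It had 771, 695, 696 and 807 FPKM in the db/db libraries, against 634, 689.7, 647, 609 and 638 FPKM in wild type. Every db/db library was above every wild-type library, although db/db 3 and 4 exceeded wild type 2 by little. The means were 742 ± 56.2 FPKM in db/db and 644 ± 29.3 FPKM in wild type (SD, n = 4 and 5), a ratio of 1.15. The log2 change was 0.20 (SE 0.08; limma, adjusted p = 0.197), and 0.18 without db/db 1 (adjusted p = 0.115). The gene Gm49759 overlaps Pkm on the same strand. It had 15.2, 42.4, 44.2 and 45.2 FPKM in the db/db libraries, against 39.4, 57.4, 48.3, 34.6 and 48.1 FPKM in wild type. How reads that fall in both genes were counted was not given, and their part in the values of Pkm was not tested.

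GC content moved with the groups in these libraries. Across genes, the correlation of GC percent with log2 expression over the wild-type mean was 0.184, 0.196, 0.287 and 0.498 in db/db 1, 3, 4 and 5, against -0.121 to 0.128 in the wild-type libraries. That mean is made of the wild-type libraries, so their values lie on both sides of 0 by construction. The db/db libraries all share it as reference. The exons of the enzymes had a median of 54.7% GC, while all tested genes had 49.8%. After expression was corrected for GC within each library, the log2 change of Pkm was 0.08 (limma, adjusted p = 0.596), that of Aldoc 0.17 (adjusted p = 0.287) and that of Ldhb 0.24 (adjusted p = 0.352). With that correction limma called 0 of the 11 rows, while it called 0.0411% of all tested genes. Aldoc and Ldhb still did not overlap between groups after it and Pkm did, while 4.03% of all tested genes then separated with db/db above. Pkm also overlapped between the groups after scaling by the median of ratios, scaling to equal sums or quantile normalization.

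Lactate dehydrogenase interconverts pyruvate and lactate. Its tetramers mix the A subunit (Ldha), rich in muscle and associated with lactate production, with the B subunit (Ldhb), rich in heart. Ldhb (ENSMUSG00000030246, chr6:142490249-142507957, minus strand) had 205, 136, 138 and 147 FPKM in the db/db libraries, against 131, 119, 118, 133 and 123 FPKM in wild type. All db/db libraries were above all wild-type libraries, and db/db 1 stood far above the other 3. The means were 157 ± 32.3 FPKM in db/db and 125 ± 6.91 FPKM in wild type (SD, n = 4 and 5), a ratio of 1.25, or 1.12 without db/db 1. The log2 change was 0.30 (SE 0.12; limma, adjusted p = 0.211) and 0.17 without db/db 1 (adjusted p = 0.0785).

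Ldha (ENSMUSG00000063229, chr7:46841475-46855627, plus strand) had 458, 339, 317 and 361 FPKM in the db/db libraries, against 327, 386, 388, 328 and 360.3 FPKM in wild type. db/db 1 was again the highest, db/db 4 was the lowest of the 9, and the groups overlapped. The log2 change was 0.03 with a 95% interval of -0.22 to 0.29 (limma, adjusted p = 0.893), and -0.08 without db/db 1 (adjusted p = 0.544). Its pseudogene copy Ldha-ps2, with which it may share reads, had a mean of 5.54 FPKM.

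Ldhb made up 30.9, 28.7, 30.4 and 29.0% of the lactate dehydrogenase FPKM in the db/db libraries, against 28.7, 23.6, 23.3, 28.9 and 25.5% in wild type. Wild type 1 and 4 lay at the db/db level and wild type 2, 3 and 5 below it. The share was 3.72 percentage points higher in db/db, at 29.7 ± 1.06% in db/db against 26.0 ± 2.67% in wild type (SD, n = 4 and 5; exact permutation p = 0.0476, adjusted 0.0952), and 3.34 points higher without db/db 1. The smallest p this test can give with 4 and 5 libraries is 0.00794. None of the 6 shares passed after adjustment, and all 6 overlapped between the groups. The size of a share depended on the gene length used. By longest transcript, the means in db/db and wild type were 23.4 and 26.4% for Hk2, 17.1 and 15.6% for Aldoc, and 21.8 and 18.9% for Ldhb. They were 45.4 and 41.3% for Pfkl, 22.0 and 19.7% for Pfkm, and 32.6 and 39.0% for Pfkp.

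**Figure D3:**
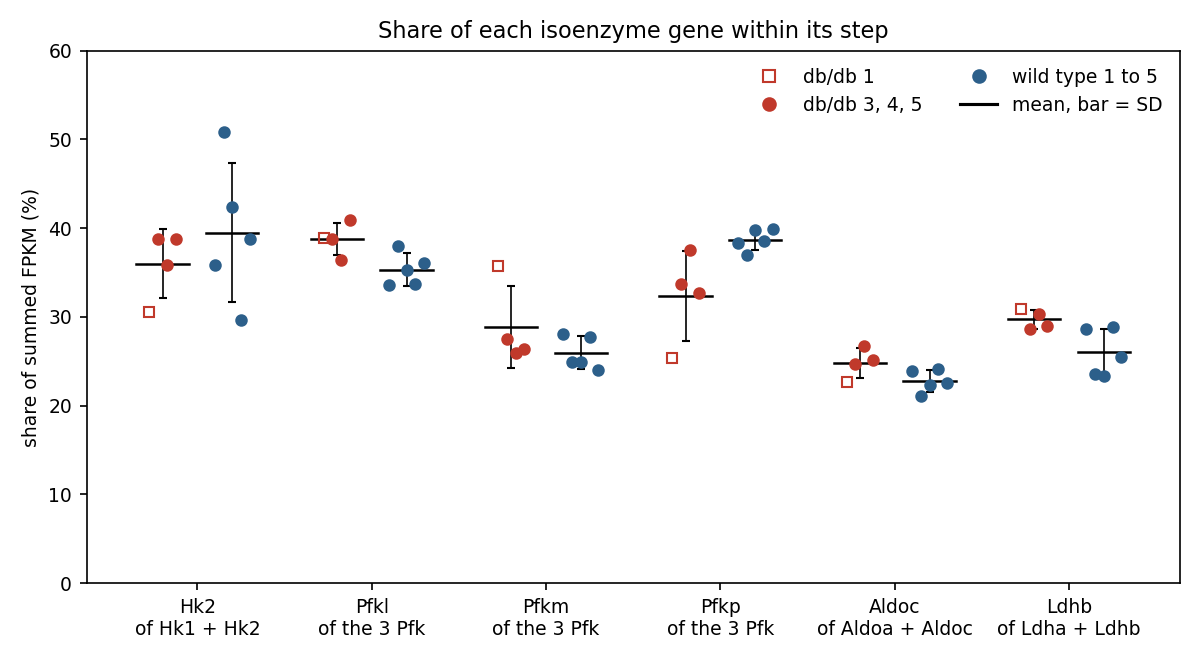
Share of each isoenzyme gene in the summed FPKM of its step, in percent, for each library, with db/db (red, db/db 1 as an open square) left of wild type (blue), and the mean with its SD in black. The share of Pfkp lies lower in db/db, apart from db/db 4, and 2 wild-type libraries have a share of Ldhb near 29%, at the db/db level.

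Taken as a list, 8 of the 11 rows had a positive log2 change, with a median of 0.09 beside 0.0035 over all tested genes. Without db/db 1 the median was 0.12 beside -0.02, and limma called 0 of the 11 rows while it called 10.6% of all tested genes. After the GC correction 5 of the 11 were positive. The summed FPKM of the 10 symbols was 2518 ± 227 in db/db and 2318 ± 127 in wild type (SD, n = 4 and 5), and 2431 ± 180.1 in db/db without db/db 1, the library with the highest sum. As a share of all FPKM in a library it was 0.892, 0.885, 0.916 and 1.01% in the db/db libraries, against 0.843, 0.934, 0.897, 0.819 and 0.867% in wild type, so the groups overlapped. With libraries scaled to equal sums 8 of the 11 were positive, with a median of 0.06 beside -0.02 over all tested genes. The mean log2 change of the 11 rows was -0.00057 with that scaling and 0.029 without it.

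**Figure D4:**
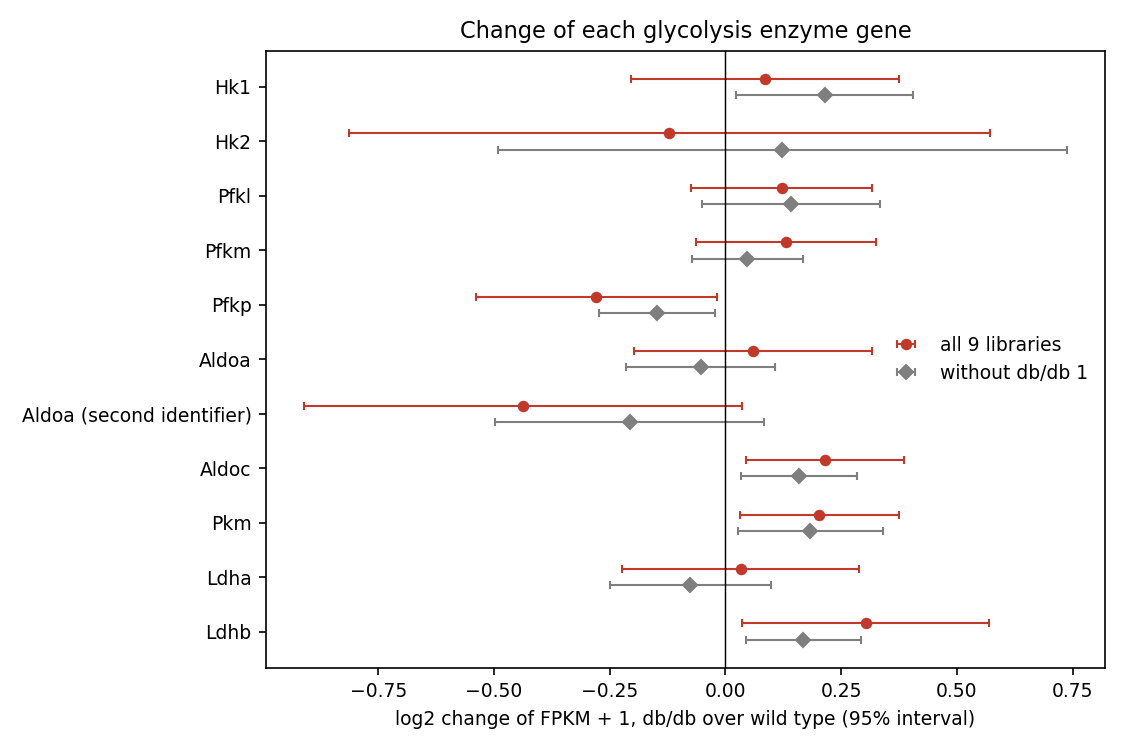
log2 change of FPKM + 1 in db/db over wild type for each of the 11 rows, with its 95% interval, from all 9 libraries (red circles) and without db/db 1 (grey diamonds). The intervals are not adjusted for the number of genes; that of Hk2 is the widest in both sets, and the estimate of -0.44 for the second Aldoa identifier is the lowest.

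Some of the enzymes varied together and others in opposite directions. These correlations are descriptions over deviations from the group means, and their points share library, depth and base composition. Over 9 libraries Pfkl and Pkm correlated at 0.81, and at 0.93 over 8 libraries without db/db 1. Pfkp and Ldhb correlated at -0.93 over 9 libraries and at -0.50 without db/db 1. Pfkm and Pfkp correlated at -0.88 and -0.44, and Hk1 and Ldhb at -0.80 and -0.19, in the same 2 sets. Ldha and Ldhb correlated at 0.63 with db/db 1 and at -0.60 without it, and Pfkl and Ldha at 0.36 with it and at 0.90 without it. The 2 genes most like Hk1 in pattern were Zfp512b (r = 0.98) and Rnf123 (0.98), and those most like Pfkl were Eml3 (0.94) and Pgam1 (0.94), the mutase a few steps further down glycolysis. Those most like Aldoa were Rom1 (0.99), a rod outer segment protein, and Gps1 (0.99). Those most like Pkm were Eno1b (0.94) and Nsun5 (0.92), and those most like Ldha were Vars (0.99) and Higd1a (0.98). Without db/db 1 these 10 correlations were 0.93 to 0.96.

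Around the enzymes, 48 further genes of glucose use were in the table and 42 passed the filter. Of these, 0 were called higher and 1 was called lower, while 0.233% and 0.267% of all tested genes were. The gene called lower was Gckr, the regulator that holds glucokinase inactive in liver, 1 of 6 tested regulators of flux. It had 13.3, 11.6, 11.1 and 12.5 FPKM in the db/db libraries, against 18.5, 17.4, 18.3, 22.5 and 16.4 FPKM in wild type, and the groups did not overlap. Gckr fell by 0.57 on the log2 scale (SE 0.09; limma, adjusted p = 0.0419). Its log2 change was -0.50 to -0.61 when any 1 library was left out, but the adjusted p was over 0.05 without each library other than db/db 1, from 0.0708 to 0.144. With the GC correction it was 0.0748, and over all alternatives it ran from 0.0116 to 0.428, the highest with the replicate number as a block.

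The other lists had no call in this fit. With limma's array weights, which give each of the 9 libraries its own weight, Hkdc1, Pdk2 and Pygm were called higher and Pgm1 lower. Of the 14588 tested genes, those weights called 550 higher and 656 lower, against 34 and 39 without them. Among 4 tested genes listed beside the same steps, Hkdc1, a hexokinase-like enzyme, was at 2.83 ± 0.274 FPKM in db/db and 1.98 ± 0.176 FPKM in wild type (SD, n = 4 and 5). Its adjusted p by limma was 0.0664. Ldhd, a dehydrogenase of D-lactate and so no isoenzyme of Ldha and Ldhb, had a log2 change of -0.14 (limma, adjusted p = 0.339), or -0.18 without db/db 1. Among 12 tested genes of the other steps, Eno2, the neuronal enolase, had a log2 change of 0.15 (limma, adjusted p = 0.317). Gpi1, which isomerises glucose phosphate, had 0.11 (adjusted p = 0.351), and without db/db 1 both had 0.10. Of the 12, 6 were positive with all 9 libraries (median 0.04). Without db/db 1, 5 were positive, with a median of -0.10 beside -0.02 over all tested genes. Pgk1 then had -0.27 (limma, adjusted p = 0.0567) and lay below all wild-type libraries. Among 13 tested genes of pyruvate entry into mitochondria, Pdk2, a kinase that switches off pyruvate dehydrogenase, had 0.20 (adjusted p = 0.152) and its relative Pdk1 had -0.22 (adjusted p = 0.219). These became 0.22 for Pdk2 (limma, adjusted p = 0.0501) and -0.16 for Pdk1 without db/db 1. Among 7 tested genes of glycogen and galactose use, Pygm, the muscle form of glycogen phosphorylase, had 41.7, 40.5, 37.2 and 49.5 FPKM in the db/db libraries, against 30.0, 32.3, 29.5, 29.5 and 30.9 FPKM in wild type. Pygm did not overlap between the groups, and its log2 change was 0.45 ± 0.08 (SE) with an adjusted p of 0.0529 by limma. The liver form Pygl had 0.25 (adjusted p = 0.111), and also 0.25 without db/db 1.

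Without db/db 1, limma called Hkdc1 and Pygm higher (adjusted p = 0.0137 and 0.0162) and Gckr, Pdk3 (another kinase of pyruvate dehydrogenase) and Pgm1 (a phosphoglucomutase) lower among the 42, while 4.72% and 5.84% of all tested genes were called higher and lower. Beside the Pygm values given above, the muscle markers summed to 224, 14.6, 29.7 and 12.5 FPKM in db/db 1, 3, 4 and 5, against 12.5 to 14.2 FPKM in wild type. Eno3, the muscle enolase, had 36.5 FPKM in db/db 1, against 9.95 to 11.2 FPKM in the other db/db libraries and 9.63 to 13.4 FPKM in wild type. Pgam2, the muscle mutase, had 16.8 FPKM in db/db 1, against at most 4.74 FPKM in the other db/db libraries and 5.59 FPKM in wild type. The part of muscle RNA in the values of Pygm, Pfkm, Aldoa and Ldha was not tested.

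**Figure D5:**
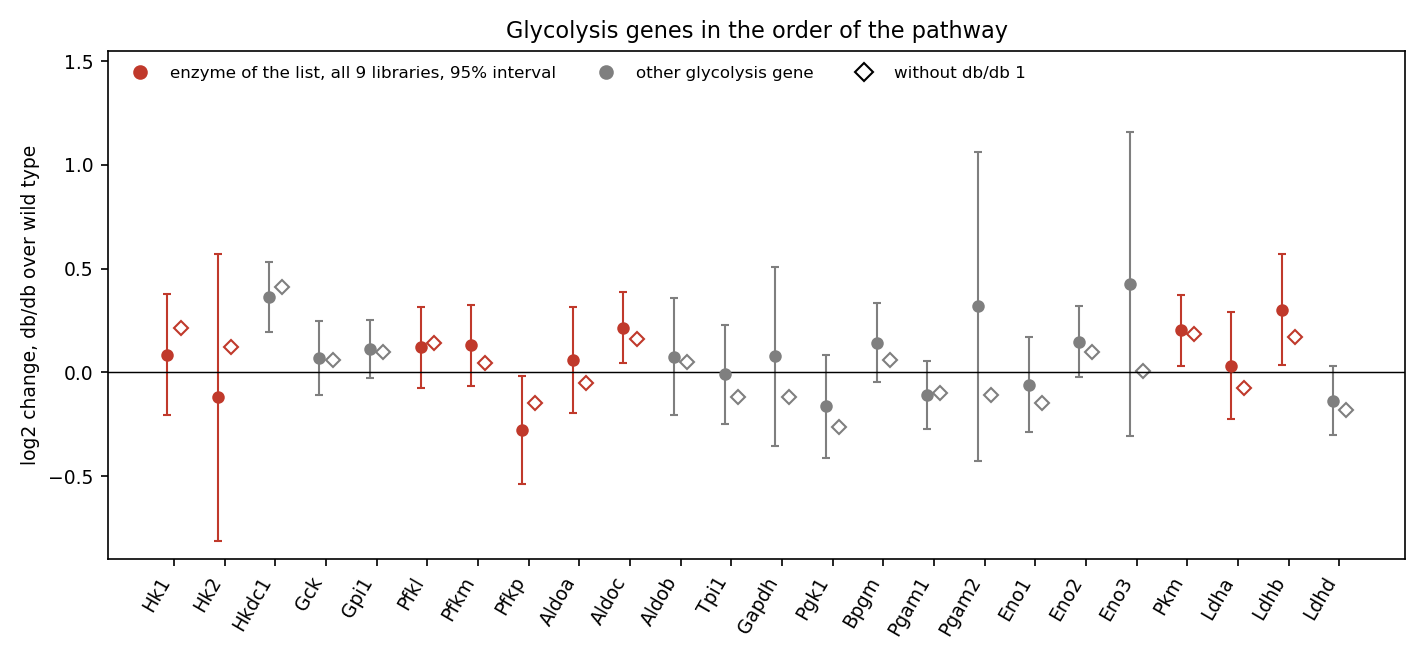
log2 change in db/db over wild type for 24 genes, placed in the order of the pathway. Filled circles show the change with its 95% interval from all 9 libraries, and open diamonds the change without db/db 1. The enzymes of the list are red, and other genes, among them Ldhd for D-lactate, are grey. Eno3 and Pgam2 move to near 0 or below without db/db 1, while Hkdc1 stays above 0.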

How the data were processed

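RNA was prepared from retina with a column kit and made into libraries with a SMARTer mRNA kit, per the labels' protocols. The authors deposited 1 table of FPKM per gene. Per the submitters' processing notes the genome build was mm10. Aligner, counting tool and strand setting: not given in the sources used here. Columns named Control and DR with a number were matched by inference from those names to the wild-type and db/db libraries of the same number. Gene positions and lengths came from GENCODE M21 (34499 of 35397 identifiers matched), and promoters from RefSeq on GRCm38.p6. The enzymes and all gene lists were chosen with earlier results of these data known.

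FPKM were tested as log2(FPKM + 1) with limma 3.58.1 (trended variance, R 4.3.3), over genes averaging 1 FPKM or more, with Benjamini-Hochberg adjustment over all of them; fold changes on this scale understate those of low genes. Depth, recovered from the low values, was 36.6 to 47.9 M reads per library, and 98.97 to 99.14% of values were whole reads within 0.1 read. Intervals for counting error cover counting only. Isoenzyme shares were compared by exact permutation tests in Python 3.11.15 (scipy 1.17.1), adjusted over the 6 shares. Genes named beside the enzymes were, in each list, those past the threshold (failing that, the 2 of smallest p) and, for the highest gene of each step, the 2 most alike in pattern; Pgk1, Tpi1, Gapdh, Eno3, Pgam2, Pdk3 and Pgm1 were named after their values were seen. For the log2 changes and the counts of called genes, alternatives changed the pseudocount, filter, scaling, variance model, GC correction, replicate block and the libraries left out.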

Additional observations from a re-analysis of the deposited data

Results flagged for a closer look

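Over 34 groups of 4 or 5 values of the enzymes and their shares, 2 values lay far from the rest of their group by Dixon's test at 95%, which flags about 1 in 20 groups by chance. Both were in db/db 1. Ldhb had 205 FPKM there, against 136 to 147 FPKM in the other db/db libraries, and its gap was 0.842 of the range. The share of Pfkm in the 3 phosphofructokinases was 35.7% there, against 25.9 to 27.5% in the other db/db libraries, with a gap of 0.838 of the range.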

How the results depend on the processing

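Of 242 alternative values of the 11 rows, 224 kept their direction and 18 reversed it. The changes of filter, limma without its trend and limma's robust option cannot move a log2 change. Their directions were fixed beforehand and are counted among the 224. None of the 242 passed the threshold, and the lowest adjusted p by limma was 0.0785, for Ldhb without db/db 1. All 84 alternative values of the 6 shares kept their direction and stayed short of the threshold. These left out libraries, took the log2 ratio, weighted by recovered reads or longest transcript, or paired libraries by replicate number. The exact test on pairs has too few sign changes to pass at all (lowest adjusted p 0.25). With db/db 1 and 4 both left out, few regroupings remain and passing was nearly out of reach (lowest adjusted permutation p 0.143). Not passing in these settings is therefore uninformative. Shares were not recomputed with the GC correction or quantile normalization, although Pfkl had 57.1% GC and Pfkp 48.0%. The part of GC content in the shares was therefore not tested. The reversed log2 changes were, with the GC correction, those of Hk1 (-0.032), Aldoa (-0.059) and Ldha (-6.63e-06); with quantile normalization, that of Hk1 (-0.025); with array weights, those of Hk2 (0.0093), Aldoa (-0.065) and Ldha (-0.098); without db/db 1, those of Hk2 (0.12), Aldoa (-0.054) and Ldha (-0.076); with the GC correction on the libraries other than db/db 1, those of Hk2 (0.093), Pfkm (-0.026), Aldoa (-0.14) and Ldha (-0.088); leaving out both db/db 1 and db/db 4, those of Hk2 (0.13) and Ldha (-0.028); and for Hk2 also without wild type 2 and with the replicate block (0.081 in both). Those last settings give the same log2 change for each row, because no db/db library has the number of wild type 2. They are thus a single estimate and not separate ones. Leaving out 1 library put Hk2 between -0.28 and 0.12, Aldoa between -0.054 and 0.14 and Ldha between -0.076 and 0.10. Over all genes 34 were called higher and 39 lower. These counts were 7 and 2 with no filter, 17 and 13 with a filter at 5 FPKM, 21 and 15 with equal sums, 550 and 656 with array weights, 5 and 1 with the GC correction, 374 and 341 when it was run on the libraries other than db/db 1, and 289 and 254 when db/db 1 and 4 were both left out. Leaving out 1 library gave 3 to 688 higher and 1 to 852 lower, most of them without db/db 1. Among the 42 other genes of glucose use, 0 were called higher and 1 lower; the counts were 0 lower with no filter and with the GC correction, 3 and 2 with array weights, 3 and 2 with the GC correction when db/db 1 was left out, and 2 higher when db/db 1 and 4 were both left out, and leaving out 1 library gave 0 to 2 higher and 0 to 3 lower. The cause of these shifts was not tested. With the replicate number as a block, 2 genes were called higher and 0 lower over all genes, and 0 of the 42 lower. Whether same-numbered libraries belong together was not stated. Deviations of same-numbered libraries correlated at 0.043, 0.046, -0.18 and 0.134 for numbers 1, 3, 4 and 5, which does not settle that question. Levels and shares by longest transcript and the medians of the lists were added after seeing the data. The 95% intervals of the log2 changes bound what 4 and 5 libraries could show.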

Other observations

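The genes that tracked the wide range of Hk2 were looked up after that range was seen, so they are a description of these 9 libraries and carry no test. Among genes that averaged 5 FPKM or more, the highest correlation with Hk2 in deviations from the group means was that of Pdk1 (r = 0.95, and 0.92 without db/db 1), a kinase that switches off pyruvate dehydrogenase. Pdk1 had 6.06, 7.13, 7.61 and 7.47 FPKM in the db/db libraries, against 7.72, 9.28, 8.82, 7.31 and 8.81 FPKM in wild type. It was highest in wild type 2 and lowest in db/db 1, as Hk2 was. Next came Ammecr1 (0.95), Gramd2 (0.94), Paqr9 (0.94) and Samd7 (0.93), the last a protein of rod chromatin, which had 29.6, 41.9, 54.3 and 57.3 FPKM in the db/db libraries, against 41.4, 68.5, 49.0, 41.5 and 45.0 FPKM in wild type. The opposite course was closest in Nmt1 (r = -0.99, and -0.99 without db/db 1), an enzyme that attaches myristate to proteins. Nmt1 had 29.8, 28.4, 28.4 and 28.0 FPKM in the db/db libraries, against 26.2, 24.8, 25.5, 26.7 and 25.7 FPKM in wild type, a narrow range within each group beside that of Hk2.

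Gapdh, the glycolysis enzyme often used as a reference gene, had 16.5 ± 5.38 FPKM in db/db and 15.3 ± 2.82 FPKM in wild type (SD, n = 4 and 5), while its neighbours in the pathway Tpi1 and Pgk1 had 271 ± 45.4 and 235 ± 36.6 FPKM in db/db and 271 ± 13.7 and 262 ± 22.7 FPKM in wild type. Gapdh has many pseudogene copies in the mouse genome, and how reads that match several places were counted was not stated, so its level is uncertain.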
